A study of Mus musculus with 6 samples.

Results

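The genes described here carry glucose through glycolysis, the pentose phosphate pathway and the entry and exit points of pyruvate and lactate. They are 38 listed genes: glucose transporters, glycolytic enzymes, the enzymes that set fructose 2,6-bisphosphate, the pentose phosphate enzymes, pyruvate dehydrogenase with its kinases, and carriers of the SLC16 family. A gene counted as measured where a probe set of the array is annotated to that gene alone, and its probe set with the highest mean over all arrays stood for it. By this rule 34 of the 38 genes were found, out of 18193 genes measured on the arrays, and 33 were tested. Gapdh was present only on control probe sets and is described without a test, and Gpi1, Eno1, Pfkfb1 and G6pdx were not found under these symbols and were not analysed here.

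A maturing red cell loses its mitochondria and comes to depend on glycolysis for ATP. Its pentose phosphate pathway supplies the NADPH that keeps glutathione reduced, and a side branch of glycolysis makes 2,3-bisphosphoglycerate, which lowers the oxygen affinity of haemoglobin. Several steps have more than 1 gene, of which one is typical of red cells (Hk1, Pklr, Pfkm with Pfkl) and another of proliferating or other blood cells (Hk2, Pkm, Pfkp). Before mitochondria are lost, pyruvate can enter them through pyruvate dehydrogenase, which the PDK kinases switch off.

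Erythroblasts came from the bone marrow of 3 wild-type mice (WT) and 3 mice with a knockout of the miR-144/451 locus (KO), and no mouse received a treatment that the labels mention. Large cells (high forward scatter) carrying both Ter119, an erythroid surface marker, and CD71, the transferrin receptor, were sorted straight into Trizol LS, and RNA from each mouse went onto 1 Affymetrix Mouse Genome 430 2.0 array. The WT arrays are titled 497, 504 and 550, and the KO arrays 493, 548 and 551; another label field gives the same numbers as microRNA constructs, and they serve here only as names. Strain, age, sex and litter, and how the locus was deleted, were not given in the sources used here. The comparison asks how the transcriptome differs without the microRNAs of this locus. Their own levels were not analysed here, so the genotype rests on the labels.

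The mature microRNAs of the deleted locus are shown because they are what the KO mice are labelled as lacking. Capitals mark the seed, bases 2 to 8, and sequences and positions are those of RefSeq for build GRCm38.p6 (chr11:78073010-78073032, chr11:78073047-78073066 and chr11:78073186-78073207, all on the plus strand).
mmu-miR-144-5p: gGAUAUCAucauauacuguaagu
mmu-miR-144-3p: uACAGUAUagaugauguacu
mmu-miR-451a: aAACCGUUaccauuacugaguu
The 3 seeds differ from one another. No target site was searched for in the members.

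All values below are log2 of the deposited intensities, and a difference is KO minus WT with its standard error from limma and n = 3 mice per group. Levels of different genes are not compared, since probe sets differ in brightness. Array medians were 5.73 to 5.78 in WT and 5.62 to 5.68 in KO, and array WT 497 stood farthest from the others, at -60.2 on the first principal component against -24.2 and -22.3 for the other WT arrays and 24.9 to 45.9 for KO. The actin control read 1.65 to 1.67 log2 units brighter at its 3′ than at its 5′ end in WT arrays, and 1.82 to 1.86 in KO arrays, a measure of RNA or labelling quality. For the Gapdh control the same measure was 1.03 to 1.09 in WT arrays and at most 1.05 in KO arrays. Its groups overlapped, so only the actin control read higher in KO. On bulk RNA, fewer cells of a type and less RNA per cell cannot be told apart.

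Most members differed little in mean between KO and WT erythroblasts, but precision was limited. The 95% interval lay within 0.5 log2 units either side of 0 for 16 of the 33 tested members. None of the 33 tested members passed the adjusted threshold of 0.05 (limma, Benjamini-Hochberg over all probe sets), where 0.385% of all genes did. The median difference of the members was -0.01, beside -0.04 over all genes, with 15 members above 0 and 18 below. At an unadjusted p under 0.05 there were 10 members, 4 higher (Tkt, Pdk1, Pdk2 and Pdk3) and 6 lower (Hk2, Pfkp, Pgam1, Pkm, Pfkfb3 and Ldhb), which is 30.3% of those tested against 21% of all genes (8.34% higher and 12.7% lower). Of the other 23 members, 20 lay within 0.25 either side of 0, a share that was not counted over all genes. The 21% covers dim genes too. In a fit without dim probe sets, which kept all 33 members, 6590 of 22519 probe sets had an unadjusted p under 0.05. So did 10 of the 33 members. With the arrays normalized once more by quantiles or by cyclic loess the unadjusted count was 12 in each case, 6 higher and 6 lower, and without KO 493 or without KO 551 it was 6.

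**Figure D1:**
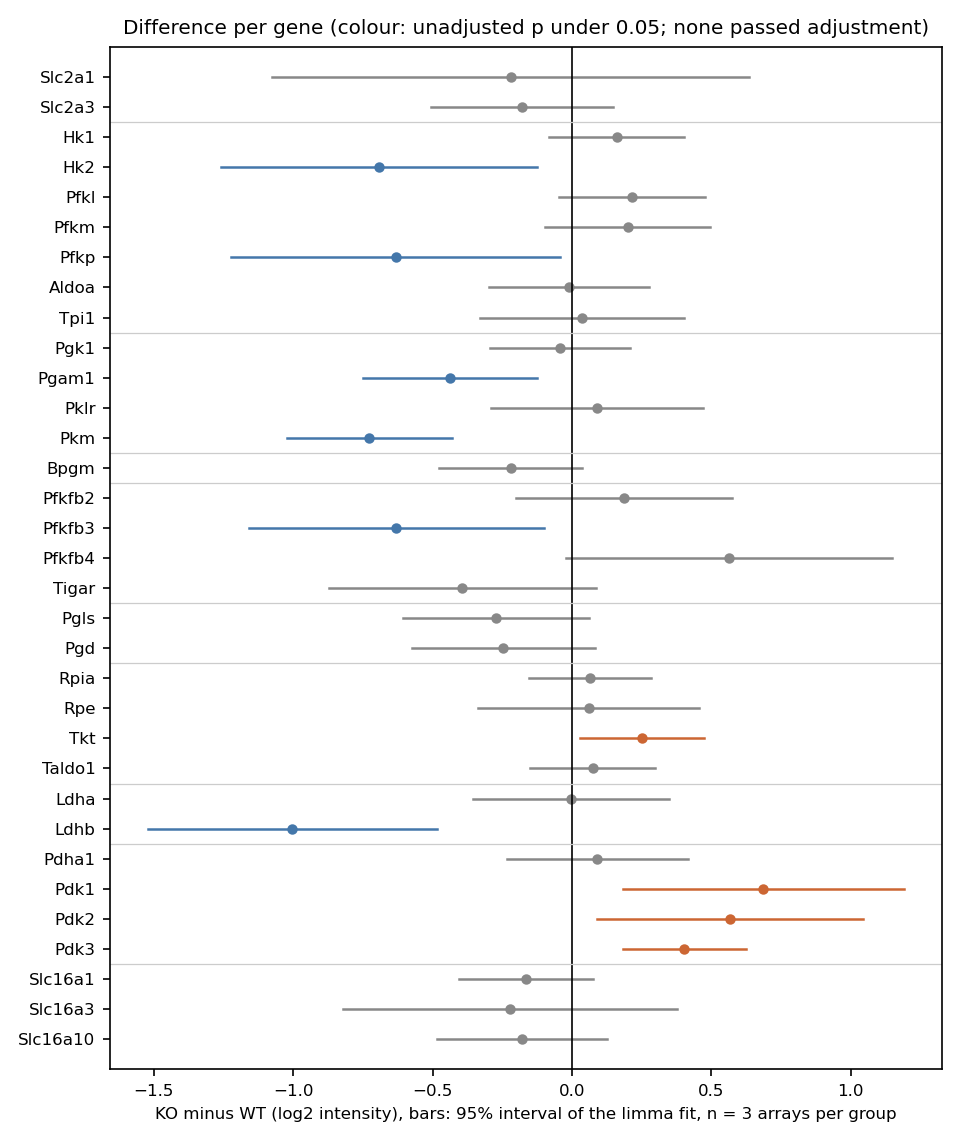
Difference KO minus WT (log2 intensity) for each of the 33 tested members, in the order of the pathway, with the 95% interval of the limma fit (3 arrays per group). Blue and orange mark the 6 lower and 4 higher members with an unadjusted p under 0.05; Ldhb lies farthest from 0, at -1.0.

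Glucose enters through facilitative transporters. Slc2a1, which encodes GLUT1, was at 9.68, 8.31 and 9.16 in the WT arrays and 8.56, 9.26 and 8.67 in the KO arrays. The groups overlapped fully, and the difference of -0.22 ± 0.36 has a 95% interval of -1.07 to 0.63, so a change of 2-fold downward lies within it. Without WT 497 the difference was 0.09, and without the other arrays in turn it ranged from -0.59 to -0.09. Slc2a3, which encodes the high-affinity transporter GLUT3, was at 10.99, 10.66 and 10.83 in WT and 10.59, 10.83 and 10.52 in KO, also overlapping, with a difference of -0.18 ± 0.14.

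Hexokinase traps glucose in the cell by phosphorylation. Hk1, the red cell hexokinase gene, was at 11.43, 11.33 and 11.53 in WT and 11.59, 11.61 and 11.57 in KO. All KO values lay above all WT values by a small margin, and the difference was 0.16 ± 0.10 (unadjusted p = 0.16). A second Hk1 probe set, 7.70 to 7.91 in WT and 8.10 to 8.44 in KO, was at 0.42 ± 0.13 (limma, unadjusted p = 0.0138, adjusted p = 0.161). Hk2, an inducible hexokinase of growing cells, was at 8.88, 8.21 and 8.58 in WT and 7.85, 8.24 and 7.50 in KO. KO 548 reached into the WT range, and the difference was -0.69 ± 0.24 (limma, unadjusted p = 0.0235, adjusted p = 0.192).

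Phosphofructokinase commits sugar to glycolysis, and red cells use the muscle and liver subunits. Pfkm, the muscle subunit, was at 10.62, 10.69 and 10.81 in WT and 10.73, 11.06 and 10.93 in KO, with overlapping groups and a difference of 0.20 ± 0.12, or 0.12 without KO 548. Pfkl, the liver subunit, was at 0.22 ± 0.11. Of the 3 probe sets of Pfkl 2 were above 0 and 1 below, and with probe sets that may match several transcripts left out Pfkl was at -0.10. Pfkp, the platelet subunit, was at 8.78, 7.86 and 8.70 in WT and 7.80, 7.93 and 7.71 in KO. The low WT 504 value lay among the KO values, and the difference was -0.63 ± 0.25 (limma, unadjusted p = 0.0386, adjusted p = 0.228). Aldoa, the aldolase of muscle and red cells, was at 11.72, 11.56 and 11.58 in WT and 11.43, 11.72 and 11.68 in KO. Its groups overlapped, at -0.01 ± 0.12. Tpi1, triose phosphate isomerase, was at 0.04 ± 0.15.

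The second phase of glycolysis yields ATP and pyruvate. Gapdh, the NADH-forming dehydrogenase, was read only by control probe sets: its brightest, at the 3′ end, was at 12.65, 12.71 and 12.69 in WT and 12.65, 12.77 and 12.71 in KO. The groups coincided, and the difference was 0.03 with no test. Pgk1, phosphoglycerate kinase, was at 11.83, 11.84 and 11.82 in WT and 11.65, 11.86 and 11.85 in KO, a difference of -0.04 ± 0.11 with KO 493 alone below the WT values. Pgam1, phosphoglycerate mutase, was at 11.08, 10.74 and 10.97 in WT and 10.36, 10.61 and 10.51 in KO. Every KO value was below every WT value, at -0.44 ± 0.13 (limma, unadjusted p = 0.0131, adjusted p = 0.159).

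Pyruvate kinase makes the last ATP of glycolysis. Pklr, which encodes the red cell and liver enzyme, was at 10.97, 11.50 and 11.28 in WT and 11.20, 11.47 and 11.35 in KO. The KO values lay inside the WT range, and the difference was 0.09 ± 0.16. Pkm, which encodes the enzyme of most other and of proliferating cells, was at 10.02, 9.68 and 9.78 in WT and 9.19, 9.04 and 9.07 in KO. Its groups were well apart, with a mean of 9.83 ± 0.17 in WT and 9.10 ± 0.08 in KO (SD), a difference of -0.73 ± 0.12 and a 95% interval of -1.02 to -0.43. This is 1.65-fold lower intensity, with the lowest p of all members (limma, unadjusted p = 0.000695, adjusted p = 0.0705). Pkm was called lower with a robust prior and a trend on intensity (adjusted p = 0.0137), with dim probe sets left out (adjusted p = 0.0308) and with 16 added before the log (adjusted p = 0.0265).

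Lactate dehydrogenase regenerates NAD+. Ldha was at 11.68, 11.90 and 11.79 in WT and 11.51, 11.91 and 11.94 in KO, and its groups overlapped around a difference of 0.00 ± 0.15 (95% interval -0.35 to 0.35). Ldhb, the subunit typical of oxidative tissue, was at 8.43, 7.90 and 7.65 in WT and 7.05, 6.76 and 7.16 in KO. All KO values were below all WT values, and it was the one member whose difference reached 2-fold, at -1.0 ± 0.22 (limma, unadjusted p = 0.00265, adjusted p = 0.101). All 4 of its probe sets lay below 0, from -1.04 to -0.59. The fit with a trend on intensity called it lower (adjusted p = 0.036), and without WT 497 the difference was -0.79.

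**Figure D2:**
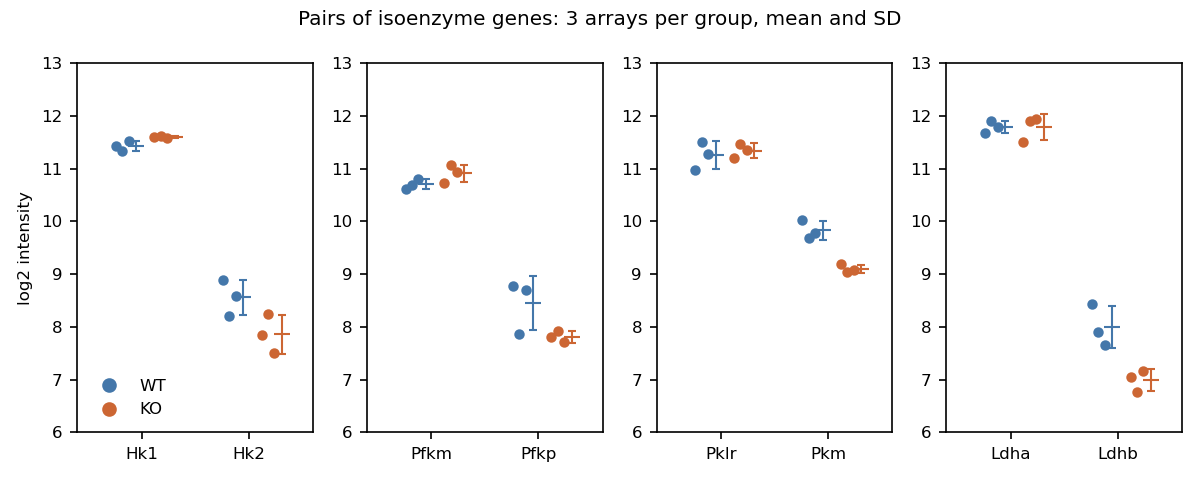
Log2 intensity of 4 pairs of isoenzyme genes in each array (points), with the mean and SD of 3 WT (blue) and 3 KO (orange) arrays. By their brightest probe sets, Hk1, Pfkm, Pklr and Ldha differ by at most 0.20 between the group means. Hk2, Pfkp, Pkm and Ldhb are lower in KO by 0.63 to 1.0, and the pairs were set out after these values were seen. Heights of different genes are not comparable.

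For 4 steps, 2 isoenzyme genes can be set side by side. The pairs were set out after these values were seen, with the lower gene always subtracted, so the direction is fixed by that choice and no test is given. The difference between the genes of a pair was taken within each array. Its mean in KO exceeded that in WT by 0.85 for Hk1 minus Hk2, 0.83 for Pfkm minus Pfkp, 0.82 for Pklr minus Pkm and 1.0 for Ldha minus Ldhb.

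The promoters of the pyruvate kinase and lactate dehydrogenase pairs are shown because Pkm and Ldhb had the smallest p of the lower members. Each is the 250 bases before the RefSeq start farthest upstream, in the direction of transcription (GRCm38.p6): Pklr chr3:89135892-89136141 (plus strand), Pkm chr9:59656326-59656575 (plus), Ldha chr7:46845554-46845803 (plus) and Ldhb chr6:142507958-142508207 (minus). Capitals mark matches on either strand to 3 motifs, which can overlap. The motif of GATA factors was searched as AGATAA. The motif of Krüppel-like factors was searched as CCNCNCCC. The core of hypoxia response elements was searched as ACGTG, and it lies on both strands of the E-box CACGTG.
Pklr: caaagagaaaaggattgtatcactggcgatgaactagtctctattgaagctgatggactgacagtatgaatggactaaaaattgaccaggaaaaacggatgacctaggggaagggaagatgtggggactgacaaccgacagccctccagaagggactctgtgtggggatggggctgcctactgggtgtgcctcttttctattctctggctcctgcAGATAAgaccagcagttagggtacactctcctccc
Pkm: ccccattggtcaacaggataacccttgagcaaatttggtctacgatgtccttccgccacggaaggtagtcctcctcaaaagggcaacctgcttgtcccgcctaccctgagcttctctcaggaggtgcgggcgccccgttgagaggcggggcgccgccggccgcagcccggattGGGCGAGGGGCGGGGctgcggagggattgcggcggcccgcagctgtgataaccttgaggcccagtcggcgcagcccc
Ldha: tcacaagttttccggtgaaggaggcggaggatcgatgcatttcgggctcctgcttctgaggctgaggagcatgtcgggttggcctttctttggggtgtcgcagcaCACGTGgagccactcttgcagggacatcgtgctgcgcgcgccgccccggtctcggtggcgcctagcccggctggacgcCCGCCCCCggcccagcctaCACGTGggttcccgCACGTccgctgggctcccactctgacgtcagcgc
Ldhb: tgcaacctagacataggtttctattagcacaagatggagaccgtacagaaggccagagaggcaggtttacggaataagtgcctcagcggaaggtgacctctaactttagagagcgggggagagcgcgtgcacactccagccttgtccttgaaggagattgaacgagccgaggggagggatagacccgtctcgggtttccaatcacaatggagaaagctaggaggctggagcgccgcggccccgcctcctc
The Pklr window held 1 GATA match and the Pkm window 2 overlapping Krüppel-like matches. The Ldha window held 5 matches to the hypoxia core, counted on both strands, 4 of them in 2 copies of CACGTG, with 1 Krüppel-like match, and the Ldhb window held none of the 3 motifs. These matches depend on the start: the windows of the other RefSeq start of Ldha and of Pklr held none of the 3 motifs, and that of Pkm held 11 Krüppel-like matches and 1 hypoxia core. Over 47 windows of 32 members, AGATAA was found in 12.8%, CCNCNCCC in 72.3% and ACGTG in 38.3%, where 9.99%, 45.9% and 16.6% of all 32851 promoter windows held them. Several windows can belong to 1 gene and overlap. The member windows cover genes higher and lower in KO, base composition was not matched, and no enrichment was tested.

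Bpgm makes 2,3-bisphosphoglycerate. Its brightest probe set was at 12.61, 12.52 and 12.61 in WT and 12.49, 12.25 and 12.34 in KO. Every KO value was below every WT value, but the difference was small, at -0.22 ± 0.11 (unadjusted p = 0.0821). The other probe sets of Bpgm gave -0.51 ± 0.15 and -0.63 ± 0.20 (unadjusted p = 0.0131 and 0.0172), so the 3 share a direction and differ in size. Neither passed adjustment (limma, adjusted p = 0.159 and 0.173).

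The PFKFB enzymes make or remove fructose 2,6-bisphosphate, the activator of phosphofructokinase, and Tigar removes it. Pfkfb2 was at 8.72, 8.75 and 8.98 in WT and 9.17, 8.69 and 9.15 in KO, with overlapping groups and a difference of 0.19 ± 0.16. Pfkfb3, whose product strongly favours synthesis, was at 8.20, 7.33 and 7.52 in WT and 7.12, 7.02 and 7.02 in KO. The KO arrays were tightly grouped below WT, while WT 497 stood well above the other WT arrays. The difference was -0.63 ± 0.22 (limma, unadjusted p = 0.0263, adjusted p = 0.199), or -0.37 without WT 497. A dimmer probe set of Pfkfb3 was at -0.02. Pfkfb4 was at 0.56 ± 0.25 (unadjusted p = 0.0569), with WT 497 inside the KO range, and at 0.34 without KO 551. Tigar was at -0.39 ± 0.20 (unadjusted p = 0.0921), and at -0.23 without KO 493. The 4 tested genes of this step thus pointed both ways.

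In the pentose phosphate pathway the oxidative branch makes NADPH and the non-oxidative branch rearranges sugars. None of the 2 tested genes of the oxidative branch and 1 of 4 of the other, Tkt, had an unadjusted p under 0.05, and the branches were not tested against each other. Pgd, 6-phosphogluconate dehydrogenase, was at 11.14, 10.80 and 10.76 in WT and 10.53, 10.74 and 10.69 in KO, a narrow separation with a difference of -0.25 ± 0.14, or -0.13 without WT 497. Pgls, the lactonase between the dehydrogenases, was at -0.27 ± 0.14, with overlapping groups. Neither had an unadjusted p under 0.05 (0.119 and 0.0927). Tkt, transketolase, was at 12.14, 12.14 and 12.16 in WT and 12.37, 12.45 and 12.37 in KO. The values within a genotype were nearly equal and the groups were apart, at 0.25 ± 0.09 (limma, unadjusted p = 0.0323, adjusted p = 0.213). A second bright probe set of Tkt was at 0.35 ± 0.10 and the dimmest at -0.02. The fit with a trend on intensity called Tkt higher (adjusted p = 0.0185), but the unadjusted p of the fit without a trend was above 0.05 whichever array was left out. Rpia, ribose 5-phosphate isomerase, was at 0.06 ± 0.09, Rpe, the epimerase, at 0.06 ± 0.17, and Taldo1, transaldolase, at 0.07 ± 0.09.

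**Figure D3:**
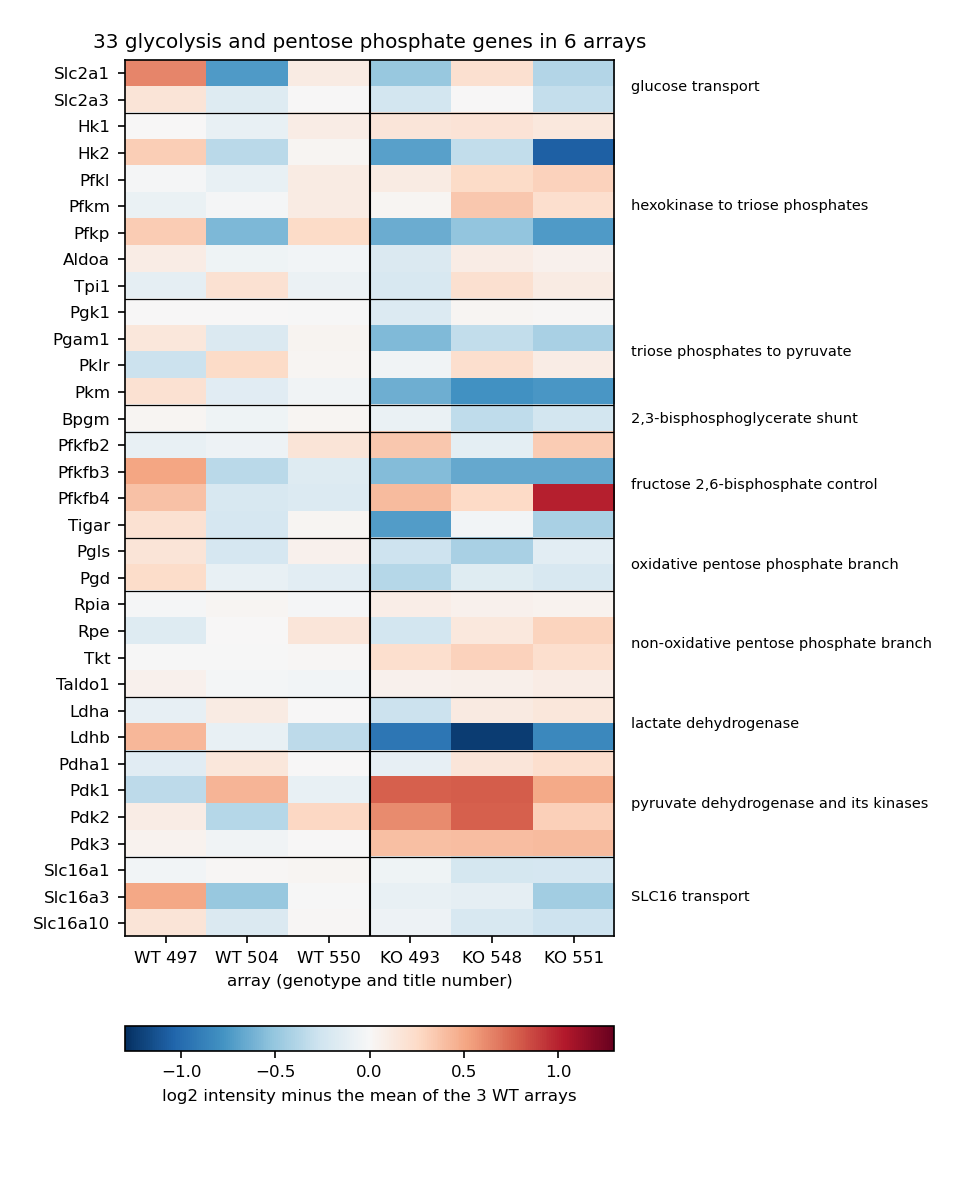
Log2 intensity of the 33 tested members in each array, minus the mean of the 3 WT arrays of that gene (colour scale, log2 units), ordered by role. Pkm and Ldhb are below and Pdk1, Pdk2 and Pdk3 above the WT mean in all 3 KO arrays, and Pfkfb3, Hk2 and Pfkp vary among the WT arrays, with WT 497 highest.

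The PDK kinases phosphorylate and switch off pyruvate dehydrogenase, and all 3 members lay higher in KO. Pdk1 was at 9.03, 9.81 and 9.27 in WT and 10.15, 10.16 and 9.86 in KO. The lowest KO value was just above WT 504, and the difference was 0.69 ± 0.21 (limma, unadjusted p = 0.0149, adjusted p = 0.165), with its 4 probe sets between 0.60 and 0.69. Pdk2, which lies on chromosome 11 like the deleted locus, was at 6.60, 6.14 and 6.78 in WT and 7.12, 7.28 and 6.82 in KO. The groups came close, at 0.57 ± 0.20 (limma, unadjusted p = 0.0262, adjusted p = 0.199). Pdk3 was at 9.55, 9.46 and 9.51 in WT and 9.90, 9.91 and 9.92 in KO. These groups were tight and clearly apart, at 0.40 ± 0.09 with a 95% interval of 0.18 to 0.62 (limma, unadjusted p = 0.00365, adjusted p = 0.111). Pdk3 was called higher with a robust prior and a trend on intensity (adjusted p = 0.0386), with dim probe sets left out (adjusted p = 0.0405) and with 16 added before the log (adjusted p = 0.0414).

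The substrate of these kinases differed less. Pdha1, the phosphorylated subunit of pyruvate dehydrogenase, was at 10.57, 10.87 and 10.72 in WT and 10.61, 10.88 and 10.94 in KO, an overlap with a difference of 0.09 ± 0.14. Among 9 further tested genes of the complex and of pyruvate entry, limma called 0. Their median was 0.26, and 2 of them, both higher, had an unadjusted p under 0.05. Pdhx, the subunit that anchors dihydrolipoamide dehydrogenase in the complex, was at 8.58, 8.73 and 8.54 in WT and 9.05, 8.94 and 9.15 in KO, at 0.43 ± 0.11 (limma, unadjusted p = 0.00648, adjusted p = 0.13). Mpc1, a subunit of the mitochondrial pyruvate carrier named here as the other of the 2, was at 0.35 ± 0.14. The fourth kinase gene, Pdk4, named after its value was seen, was dim and scattered, at 5.40, 5.94 and 6.25 in WT and 4.64, 5.0 and 5.81 in KO, with a difference of -0.71 ± 0.34 (unadjusted p = 0.074), or -0.46 without KO 493.

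**Figure D4:**
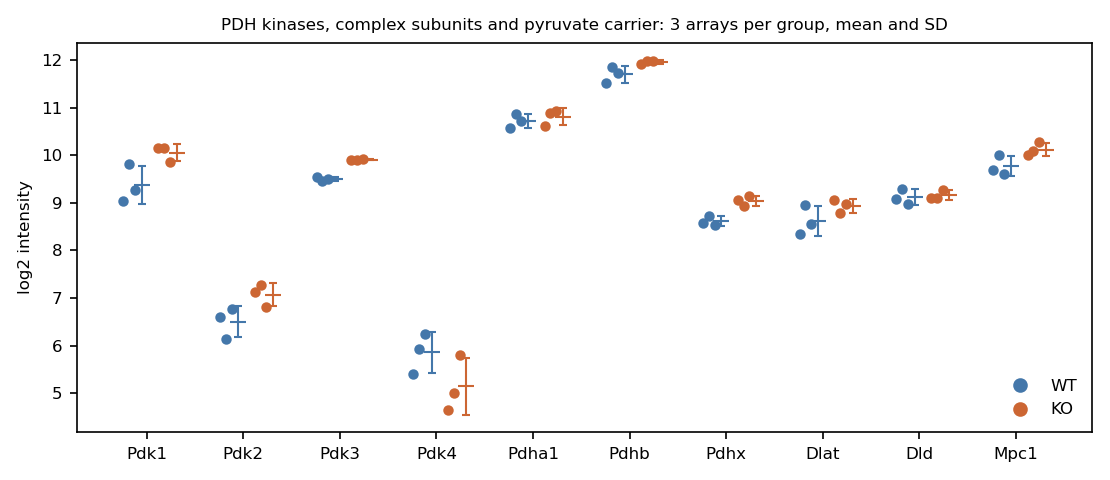
Log2 intensity of the pyruvate dehydrogenase (PDH) kinase genes, subunits of the complex and the pyruvate carrier gene Mpc1 in each array (points), with the mean and SD of 3 WT (blue) and 3 KO (orange) arrays. The KO arrays of Pdk1, Pdk2, Pdk3, Pdhb and Pdhx lie above all WT arrays, and those of Pdk4 spread from 4.64 to 5.81.

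The SLC16 members carry lactate, pyruvate or aromatic amino acids. Slc16a1, which encodes the lactate carrier MCT1, was at 12.11, 12.16 and 12.17 in WT and 12.09, 11.92 and 11.93 in KO, with all KO values slightly below WT. The difference was -0.17 ± 0.10, and a dimmer probe set of Slc16a1 was at -0.51 ± 0.13 (limma, unadjusted p = 0.00565, adjusted p = 0.125). Slc16a3, the lactate exporter MCT4, on chromosome 11, was at -0.22 ± 0.25, at 0.03 without WT 497, at -0.11 without KO 551 and at -0.47 without WT 504. Slc16a10, a carrier of aromatic amino acids, was at -0.18 ± 0.13, with 3 of its 4 probe sets below 0 and 1 above.

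In 13 members (39.4%) the 3 KO values did not overlap the 3 WT values, 6 higher and 7 lower, where this held for 28.8% of all genes (12.5% higher and 16.2% lower). The share over all genes covers dim genes too and was not counted without them. The 6 higher were Hk1, Tkt, Rpia, Pdk1, Pdk2 and Pdk3, and the 7 lower were Pgam1, Pkm, Bpgm, Pfkfb3, Pgd, Ldhb and Slc16a1. Of 21 members with several tested probe sets, 15 had all of them on the same side of 0. Calls differed by the model of the variance: limma with a robust prior and a trend on intensity called 4 members (Tkt and Pdk3 higher, Pkm and Ldhb lower) where it called 4.42% of all genes, and the fit without dim probe sets, which kept all 33 members, called 2 (Pdk3 higher, Pkm lower) where it called 4.39%.

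Among 80 tested genes of sugar metabolism outside the members, from a list of 85, 1 was called, lower, and 0 higher, with a median of -0.04. An unadjusted p under 0.05 was found for 21 (26.3%), 7 higher and 14 lower, where 21% of all genes had one, 8.34% higher and 12.7% lower. The counts in the parts of this list below, and in the pyruvate dehydrogenase list above, are of few genes and are to be read against these shares. The called gene was Slc2a4, which encodes the insulin-responsive transporter GLUT4 and lies on chromosome 11. It was at 10.59, 10.41 and 10.43 in WT and 8.67, 8.74 and 8.38 in KO. The groups were far apart, at -1.88 ± 0.13 (limma, adjusted p = 0.00842), and its second probe set was at -1.68. The call ended without WT 504 (adjusted p = 0.0522) and without KO 548 (adjusted p = 0.0565), at differences of -1.91 and -1.95. Of the 10 tested other glucose transporters 4 had an unadjusted p under 0.05, 1 higher and 3 lower. Slc5a2, a sodium-coupled transporter best known from kidney, was at 10.34, 10.13 and 10.40 in WT and 10.93, 10.73 and 10.58 in KO, at 0.46 ± 0.13 (adjusted p = 0.155). This probe set is of a kind that may match several transcripts, and the other probe set of Slc5a2 was at 0.19.

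In the remaining lists no gene was called. Of 13 regulators of glycolysis 4 had an unadjusted p under 0.05, 2 higher and 2 lower, with a median of -0.15. Egln3, an oxygen-sensing hydroxylase of hypoxia-inducible factors, was at 7.21, 7.0 and 7.0 in WT and 6.29, 6.66 and 6.22 in KO, with the groups apart at -0.68 ± 0.15 (adjusted p = 0.102). Vhl, which targets hydroxylated hypoxia-inducible factors for degradation, was at 10.40, 10.26 and 10.16 in WT and 10.64, 10.69 and 10.61 in KO, also apart at 0.37 ± 0.11 (adjusted p = 0.148). The fit with a trend on intensity called 2 regulators, both higher, Vhl (adjusted p = 0.0438) and Bach1 (adjusted p = 0.0226). Bach1, a haem-binding repressor, was at 0.31 ± 0.10 without the trend (adjusted p = 0.163). Among 11 other SLC16 genes and their partner proteins 4 had an unadjusted p under 0.05, 1 higher and 3 lower. Slc16a7, which encodes the carrier MCT2, was dim, at 6.28, 6.11 and 6.14 in WT and 5.84, 5.64 and 5.64 in KO, a difference of -0.47 ± 0.11 (adjusted p = 0.115). The unadjusted count was 1 of 11, lower, for other isoforms of glycolytic enzymes and 2 of 8, 1 higher and 1 lower, for other pentose phosphate enzymes.

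All 8 measured of 12 erythroid markers lay above the median of every array. So did all measured neutrophil (8), macrophage and monocyte (7), megakaryocyte and platelet (5) and eosinophil, basophil and mast cell markers (6). This also held for 5 of 6 B lineage and 3 of 5 T and NK markers, and does not set erythroid cells apart. Of the erythroid markers 7 of 8 were lower in KO by a little, with a median difference of -0.11 and 0 with an unadjusted p under 0.05. Their summed linear intensities did not overlap, at 47340 to 49251 in WT and 45080 to 46181 in KO. Markers of other blood cells were present too, and most were lower in KO. Over all genes, 56.0% lay below 0 and 12.7% were lower with an unadjusted p under 0.05. Eosinophil, basophil and mast cell markers were lower in 6 of 6, all with an unadjusted p under 0.05, with summed linear intensities of 3582 to 6109 in WT and 2594 to 2968 in KO. T and NK markers were lower in 5 of 5 measured (1 with an unadjusted p under 0.05; 1326 to 1788 in WT and 708 to 1052 in KO), and B lineage markers in 5 of 6 (4 with such a p; 3701 to 5973 and 2616 to 3422). Macrophage and monocyte markers were lower in 7 of 7 (3 with such a p; 8533 to 9896 and 6915 to 7819), neutrophil markers in 8 of 8 (2; 47292 to 51510 and 41254 to 45831), and megakaryocyte and platelet markers in 2 of 5 (0; 5530 to 5942 and 5356 to 6534). No marker of these lists was called, and none lay below the 25th percentile of every array.

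The 6 members lower at an unadjusted p under 0.05 were Hk2, Pfkp, Pgam1, Pkm, Pfkfb3 and Ldhb. They were chosen for being lower, so a direction shared with the lower markers was fixed by that choice. By mean log2 intensity, macrophage and monocyte markers were highest among WT arrays in WT 504. Megakaryocyte and platelet markers were higher in KO, by 0.05. In all 6 the highest WT value was that of WT 497, which was also the highest WT array for 17 of the 33 members (51.5%) and 34.5% of all genes, and which had the highest summed signal of eosinophil, basophil and mast cell, T and NK, B lineage, neutrophil and megakaryocyte markers among the WT arrays. Leaving out WT 497, their highest WT array, had to shrink the 6 differences. Without it they kept their direction at 59.0% to 86.7% of their size, and 4 of the 6 (Pgam1, Pkm, Ldhb and Pfkfb3) had an unadjusted p under 0.05. Of the 4 higher members, 3 (Pdk1, Pdk2 and Pdk3) did. WT 504 lay below the WT mean in all 6 lower members, so leaving it out had to move them farther from 0. Without WT 504 they ranged from -0.53 for Pgam1 to -1.05 for Ldhb. The part of other blood cells, or of the actin 3′ to 5′ signal, in these differences was not tested.

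**Figure D5:**
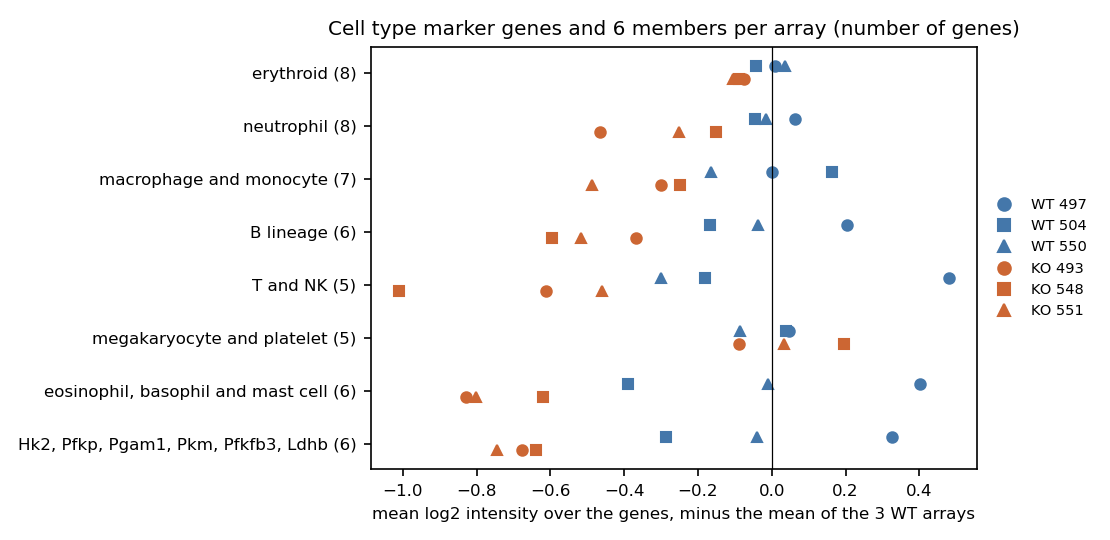
Mean log2 intensity of each list of marker genes in each array, minus the mean of the 3 WT arrays, with the same for the 6 members lower at an unadjusted p under 0.05 (bottom line; chosen by that p). Blue symbols are WT and orange KO arrays, and the number of genes is in brackets; for the 6 members the WT arrays lie at 0.33, -0.29 and -0.04 and the KO arrays at -0.68, -0.64 and -0.74.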

How the data were processed

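Expression was measured on 6 arrays, 3 per genotype, grouped by their titles, which share no number. The deposited intensity values came from RMA, which summarises the probes of a probe set after background correction and normalization, per the submitters' processing notes; software, version and background step were not given in the sources used here. The values, linear and no lower than 1, were turned into log2 with no further normalization. Of 45101 probe sets 64 controls were left out, and 45037 were tested for KO against WT without covariates (limma 3.58.1, R 4.3.3: lmFit, eBayes). The threshold was an adjusted p of 0.05, by Benjamini-Hochberg over all of them. The code was tested on simulated data.

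Gene names came from GEO's platform annotation: 34958 probe sets named 1 gene and 932 several, which named none. Identifiers of 99.1% of genes matched RefSeq genes of GRCm38.p6, used for chromosomes. The members, lists and tests were chosen with earlier results of these data known. Array values are printed for members with an unadjusted p under 0.05, the brightest of each role and Pklr, Bpgm, Hk1, Slc2a1 and Ldha, and for other genes if called or among the 6 smallest p; those of Pfkm, Pdk4, Pgm1 and Pygl were added after they were seen. The number of arrays limits precision. Alternatives are given in the closing section.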

Additional observations from a re-analysis of the deposited data

How the results depend on the processing

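Of the 33 members, 0 were called in the fit as reported, with quantile or cyclic loess normalization applied once more and with the mean of a gene's probe sets. The same held with a block for low against high title numbers and without any 1 array. Without probe sets that may match several transcripts only 25 members were tested, not including Ldhb and Pgam1, and 0 were called. Of all 33 members, 4 were called with an intensity trend and robust prior, 2 with dim probe sets left out and 2 with 16 added before the log. Of other sugar metabolism genes 1 was called as reported, 3 with the trend, and 0 to 1 without any 1 array. Over all probe sets 160 were called (83 higher, 77 lower), 1593 with the trend, 1009 with dim probe sets left out, 1016 with 16 added, 17 with the block, and 8 to 23 without any 1 array. Renewed quantile normalization gave 157 higher and 77 lower. The members' median stayed between -0.08 and 0.05. All 10 members with an unadjusted p under 0.05 kept their direction wherever they were tested, 7 of them with such a p under the block. Directions that turned belonged to Slc2a1, Pfkl, Aldoa, Tpi1, Pgk1, Pklr, Ldha, Rpe and Slc16a3, none of them called. No paired analysis was possible because the groups share no title number. The cause of these shifts was not tested.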

Other observations

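Of 18 tested genes of gluconeogenesis and glycogen handling, limma called 0. The differences of 15 were below 0 with a median of -0.11, where 56.0% of all genes lay below 0 with a median of -0.04, and no shift of the list was tested. Those with an unadjusted p under 0.05 were 4, all lower, 22.2% of the list against 21% of all genes, and are named because they are few, after their values were seen. Pgm1, a phosphoglucomutase that links glycogen to glycolysis, was at 7.62, 7.62 and 7.08 in WT and 6.63, 6.78 and 7.05 in KO. Pygl, the liver form of glycogen phosphorylase, was at 11.15, 10.40 and 10.60 in WT and 10.19, 10.15 and 10.12 in KO, where WT 497 was the highest array, and the difference of -0.56 was -0.35 without it. Differences were -0.26 ± 0.10 for Fbp1, a fructose bisphosphatase, and -0.44 ± 0.18 for Gbe1, the glycogen branching enzyme. Without WT 497 Gbe1 was at -0.24 (limma, unadjusted p = 0.112).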
